A study of Mus musculus with 72 samples.

Results

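The 49 genes described here encode the proteins that start and carry out DNA replication and the enzymes that supply its nucleotides. They were taken by gene name, with older aliases allowed, and each gene was followed on its brightest probe. All 49 had a probe among the 31131 gene names of the array. Of these, 46 were detected, which means that less than 25% of the spots of their probe were outliers or not well above background, and they were tested among 16098 genes in all. By role, the 46 comprised 7 genes of origin licensing, the 7 MCM genes, Cdc45 and the 4 GINS genes, 10 genes of DNA polymerases and primase, 6 genes of the sliding clamp and its loader, the 3 genes of replication protein A, 3 genes of Okazaki fragment processing and 5 genes of nucleotide supply.

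Blood was drawn by cardiac puncture from young adult male C57BL/6 mice that had been irradiated with 0.25 or 1 Gy of neutrons or 1 or 4 Gy of x-rays, or handled as unirradiated controls, and its RNA was hybridised to 72 one-colour arrays with 1 mouse per array. The neutrons came from an accelerator whose energy spectrum imitates that of a nuclear detonation. That beam also carried gamma rays, and the x-rays were given at a far higher dose rate. These differences cannot be told apart from radiation type. Controls were placed on the wheel of the neutron source with the beam off. At day 1 the groups held 5 controls, 6 mice after 0.25 Gy neutrons, 6 after 1 Gy neutrons, 6 after 1 Gy of x-rays and 5 after 4 Gy of x-rays. At day 3 there were 5 controls, 6 mice after 0.25 Gy neutrons and 5 after 1 Gy of x-rays. At day 7 there were 6 controls, 5 mice after 0.25 Gy neutrons, 6 after 1 Gy neutrons, 5 after 1 Gy of x-rays and 6 after 4 Gy of x-rays. The controls of the same day served for all exposures of that day, so comparisons within a day share control mice. Levels are background-corrected intensities on the log2 scale, with the median of the detected probes of each array set to 0.

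DNA replication starts where the origin recognition complex, Cdc6 and Cdt1 load the ring of Mcm2 to Mcm7 onto DNA, and geminin holds Cdt1 in check. Cdc45 and the GINS complex turn the loaded ring into the moving helicase, after which primase and the DNA polymerases alpha, delta and epsilon copy the strands, held by the Pcna clamp that replication factor C loads, while Fen1 and Lig1 join the fragments of the lagging strand. Ribonucleotide reductase, thymidylate synthase, thymidine kinase and dUTPase supply the nucleotides. Most cells of the blood do not divide, and genes of this machinery are known to be read in proliferating lymphocytes and in young cells released from the bone marrow.

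Between 40.2 and 67.3% of the spots of an array were well above background, and the 1 Gy neutron arrays of day 7 were the dimmest, with 40.2 to 50.3%. Genes of hepatocytes, a cell type foreign to blood, were detected for 8 of 20 list members, led by Apoa2, and their mean level differed widely between mice of one group, from 0.28 to 7.08 in the controls of day 1. It was 8.01 to 8.89 in all mice given 4 Gy of x-rays at that day, whereas the controls of day 7 stayed between -2.40 and 0.41. One mouse given 0.25 Gy neutrons (day 1, replicate 5, hepatocyte level 9.23) and one given 1 Gy of x-rays (day 7, replicate 5, 5.42) stood apart from their groups in several of the 46 genes. The mean level of 9 detected B cell genes, led by Cd79b, was 2.76 to 3.59 in the controls of day 1, against -0.73 to 1.06 after 1 Gy neutrons and -1.59 to -0.49 after 4 Gy of x-rays. No x-ray group shared a scan date with the controls of its day, so that scan date and x-ray exposure cannot be told apart, whereas every neutron group shared a scan date with its controls for at least 1 mouse. These values stand beside the results below, their part in those results was not tested except where stated, and in whole blood fewer cells of a type cannot be told apart from less RNA per cell.

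Promoter windows of 300 bases, from 250 before to 50 after the first transcribed base, were read from RefSeq on GRCm38.p6 for 41 of the 49 genes. Genes of this machinery are known targets of E2F factors, so the windows were searched on both strands for TTTCCCGC, TTTCGCGC, TTTGCCGC and TTTGGCGC. A match was held by 16 of the 41 genes (39%), against 704 of 27025 genes with a window (2.6%). The CCAAT box was held by 24 of the 41 (58.5%), against 11096 of all (41.1%). By role, E2F-type letters stood in the windows of 4 of 6 MCM genes, 5 of 9 polymerase and primase genes and 4 of 8 licensing genes, and in none of the 3 replication protein A genes or the 5 nucleotide supply genes. The 4 MCM genes that changed sides between the 2 days after 4 Gy of x-rays (lower, then higher) are printed here, 5′ to 3′ along the gene, with the matches in capitals. Counted from the first transcribed base as 0, the Mcm3 matches begin at 19 and 38, the overlapping Mcm5 matches at -153 and -149 and the Mcm7 matches at -165 and 16. Mcm2 has none of these letters in its window, so the 4 genes do not share them. The windows lie at chr6:88898731-88899030 on the minus strand (Mcm2), chr1:20820263-20820562 on the minus strand (Mcm3), chr8:75109259-75109558 on the plus strand (Mcm5) and chr5:138171834-138172133 on the minus strand (Mcm7, the one of its windows that holds matches).
Mcm2: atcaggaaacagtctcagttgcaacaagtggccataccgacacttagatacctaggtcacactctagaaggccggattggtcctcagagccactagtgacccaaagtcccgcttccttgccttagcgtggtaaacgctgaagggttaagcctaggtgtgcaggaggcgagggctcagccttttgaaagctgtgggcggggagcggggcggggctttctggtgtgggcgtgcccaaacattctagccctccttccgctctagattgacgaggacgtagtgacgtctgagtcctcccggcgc
Mcm3: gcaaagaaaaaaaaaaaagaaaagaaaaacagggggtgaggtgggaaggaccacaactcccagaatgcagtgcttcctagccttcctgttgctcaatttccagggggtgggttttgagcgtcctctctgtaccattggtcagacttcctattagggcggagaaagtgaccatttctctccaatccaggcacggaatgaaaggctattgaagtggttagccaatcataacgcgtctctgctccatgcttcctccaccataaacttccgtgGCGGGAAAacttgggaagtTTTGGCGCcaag
Mcm5: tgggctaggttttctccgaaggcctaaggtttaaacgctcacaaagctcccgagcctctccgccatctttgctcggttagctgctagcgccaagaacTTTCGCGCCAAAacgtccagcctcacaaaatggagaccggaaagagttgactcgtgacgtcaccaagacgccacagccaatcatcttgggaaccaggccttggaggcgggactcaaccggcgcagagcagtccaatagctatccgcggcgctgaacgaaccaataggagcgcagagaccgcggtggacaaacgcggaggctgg
Mcm7: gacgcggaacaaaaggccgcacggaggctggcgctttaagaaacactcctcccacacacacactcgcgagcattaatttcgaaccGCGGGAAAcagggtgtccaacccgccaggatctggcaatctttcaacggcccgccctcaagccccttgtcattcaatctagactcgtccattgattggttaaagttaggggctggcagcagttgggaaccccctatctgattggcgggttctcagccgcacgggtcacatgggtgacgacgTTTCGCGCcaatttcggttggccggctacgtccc

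In the control mice the 46 genes lay between -3.08 and 6.99 on the log2 scale, 25 above and 21 below the array median. The brightest probes of each role were those of Cdt1 (2.44), Mcm6 (2.97), Gins3 (5.22), Pold1 (1.87), Pcna (2.73), Rpa1 (3.87), Lig1 (6.99) and Dut (2.09), as mean levels per probe that do not rank transcripts, since probes differ in brightness. In the probe annotation of the files (mm9), the probe of Mcm2 lies at chr6:88833619-88833678, that of Mcm3 at chr1:20793136-20793195, that of Mcm5 at chr8:77651350-77651410 and that of Lig1 at chr7:13896609-13896667. Probes of Mcm7, Pcna and Rrm2 are annotated to chromosomes 16, 19 and 19, whereas their genes lie on 5, 2 and 12, so those 3 may also read a related copy and are uncertain as to source. For 6 members, Orc1, Orc2, Pold1, Pole2, Pole3 and Rfc3, the annotation gives the probe no position, so its place could not be checked in this way. Orc1, Cdc6 and Pola2 were not detected. Cdc6 was well above background on all 6 arrays of 4 Gy of x-rays at day 7, on 2 of 6 control arrays of that day and on 0 of 6 arrays of 1 Gy neutrons. Set against the 0.25 Gy neutron mice of day 7, none of which had it well above background, it was at least 1.93-fold higher after 4 Gy of x-rays, by a bound that takes the dimmest signal well above background on each array as the lower level. Pola2, which ties primase to polymerase alpha, was well above background on 6, 5 and 0 of 6 arrays in the same order. The 0 of 6 does not by itself show a lower level, since the 1 Gy neutron arrays of day 7 were the dimmest. There Cdc6 differed from the controls of the day by 0.58 and Pola2 by -0.54, neither called without the detection filter. No bound could be set against these arrays, since the lower level (-2.72) lay above the x-ray means of Cdc6 (-2.86) and Pola2 (-3.57). Orc1 was above background on 5 of all 72 arrays.

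**Figure D1:**
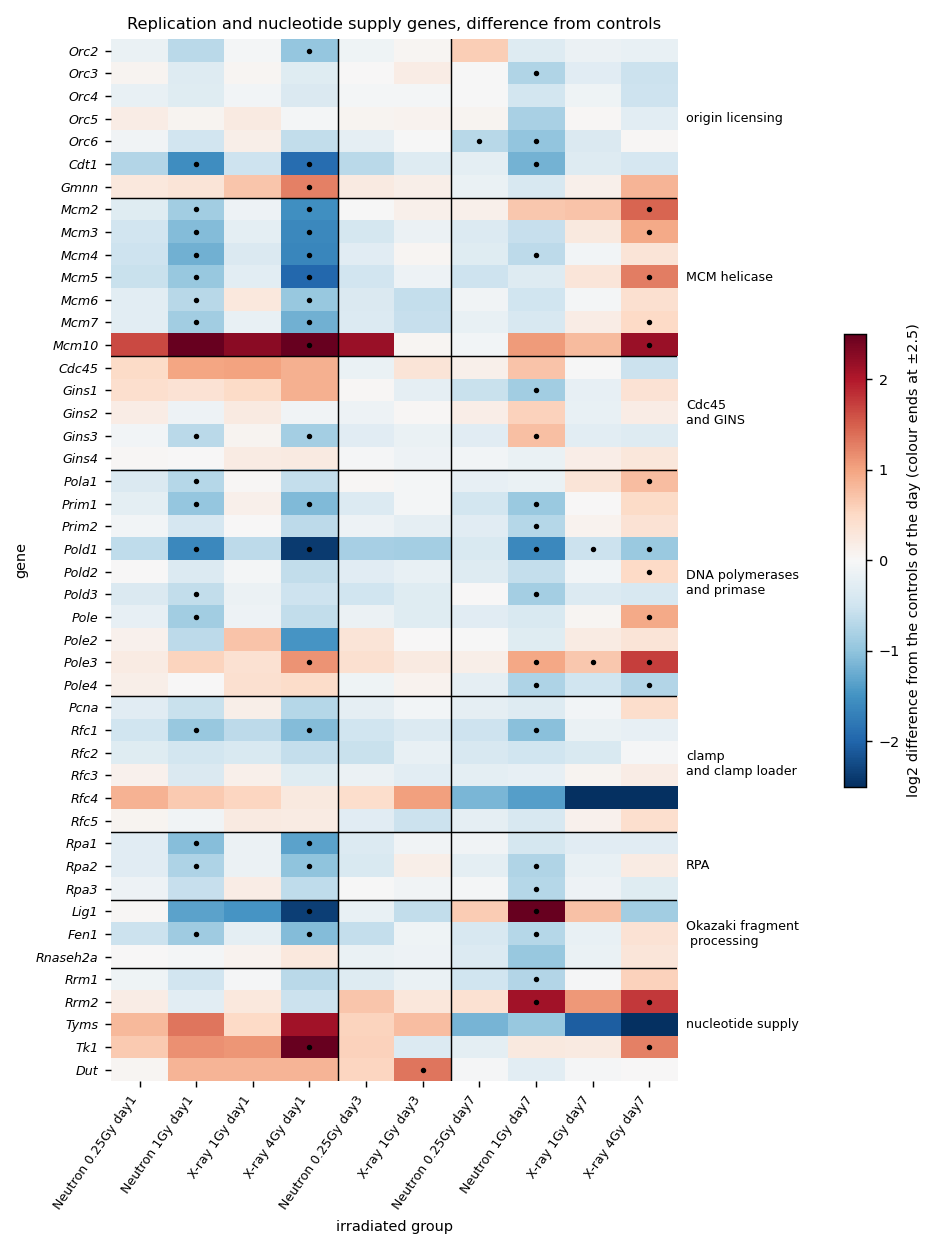
Log2 difference of each of the 46 detected genes (rows, grouped by role) between each of the 10 irradiated groups (columns) and the controls of its day. Colours end at a log2 difference of 2.5 in either direction, and dots mark called genes. Most MCM rows are lower after 1 Gy neutrons and 4 Gy of x-rays at day 1, and Mcm2, Mcm3, Mcm5 and Mcm7 are higher after 4 Gy of x-rays at day 7.

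At 1 day after 1 Gy of neutrons, genes of the replication machinery were lower in blood in most roles, with the MCM helicase, DNA polymerase delta and the loading factor Cdt1 in front. A gene was called at a limma p below 0.001 with a Benjamini-Hochberg false discovery rate below 5% over all 16098 genes, and by this rule 17 of the 46 fell and none rose. Over all genes 10.7% were called lower and 5.62% higher. The median log2 difference was -0.49 over the 46 and -0.08 over all genes. By role, 6 of 7 MCM genes fell (median -0.87), 5 of 10 polymerase and primase genes (-0.64), 2 of 3 replication protein A genes (-0.78), and 1 each in licensing, Cdc45 and GINS, the clamp and its loader, and Okazaki fragment processing. No gene of nucleotide supply was called on its brightest probe. The median of these 5 genes, 0.86, is the value of Dut, whose dimmer probe differed the other way (-1.33, untested), from -3.57 to -2.56 in controls to -4.48 to -3.72 after neutrons. The mean level of the 46 in single mice was 0.09 to 0.39 in the controls and -0.19 to 0.12 after neutrons, so that the ranges just met. All 9 detected B cell genes were called lower in the same comparison (median -2.62), and their part was not tested. After normexp background correction 3 of the 46 were lower, within the scan date that held 4 neutron and 5 control mice 11 were lower, and under centring on spike-in probes none was lower and 2 were higher.

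Cdt1 brings the MCM ring to the origin. The controls of day 1 had Cdt1 levels of 2.38, 2.57, 2.63, 1.80 and 2.40, and the mice given 1 Gy neutrons 0.55, 0.81 and 1.06 (lowest, median, highest). Every irradiated mouse was below every control. Cdt1 fell by 1.55 ± 0.18 on the log2 scale (SE, n = 6 and 5), or 2.92-fold, with an adjusted p of 0.000194 (limma).

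Pold1, the catalytic subunit of polymerase delta, had levels of 1.92, 2.10, 1.91, 1.29 and 1.88 in the controls and -0.12, 0.29 and 0.44 (lowest, median, highest) after neutrons. These groups were again apart. The difference of -1.60 ± 0.17 (3.04-fold, limma adjusted p 0.00014) was the largest fall among the 46. Like every other lower call of this comparison, those of Cdt1 and the MCM genes included, it was lost when the arrays were centred on spike-in probes in place of the median. Under that centring the median of all genes moved from -0.08 to 0.42.

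Of the helicase, Mcm4 fell by 1.20 ± 0.21 (adjusted p 0.0016) and Mcm3 by 1.09 ± 0.16 (0.000899), with Mcm3 levels of 1.88, 2.01, 2.05, 1.35 and 1.87 in controls and 0.45 to 1.02 after neutrons. Mcm5 was at 0.58, 0.77, 0.71, -0.04 and 0.49 in controls and at -0.61 to -0.20 after neutrons, and Mcm2 at 0.38, 0.16, 0.15, -0.24 and 0.31 against -1.06 to -0.38. No irradiated mouse reached the control range in these 3 genes. Mcm10, a separate factor that helps to fire the helicase, lay apart from the ring, with levels of -2.84 to 2.60 in the neutron group and -3.27 to 0.08 in the controls, and it was not called (2.72 ± 0.95, adjusted p 0.0369). Rpa1, the large subunit that coats single-stranded DNA, fell by 1.06 ± 0.18, from 3.31 to 4.00 in controls to 2.42 to 3.22, and the flap nuclease Fen1 by 0.90, from 1.14 to 1.62 to 0.19 to 0.74. Gins3 fell by 0.67 ± 0.15, a call that was lost without control replicate 1, 2, 3 or 5 or without neutron replicate 1, 2, 3, 4 or 5.

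**Figure D2:**
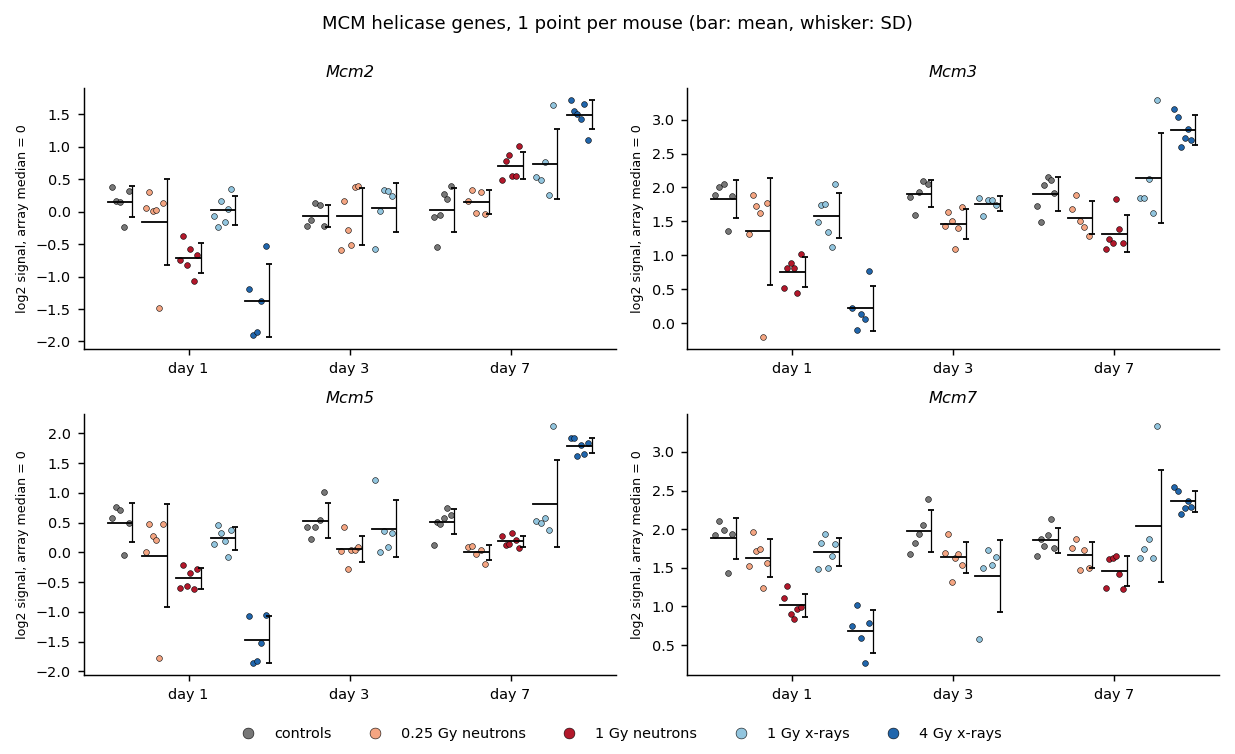
Log2 levels (array median 0) of Mcm2, Mcm3, Mcm5 and Mcm7 in every mouse, by exposure and day, with 1 point per mouse, a bar at the group mean and an error bar of 1 SD. In all 4 genes the mice given 4 Gy of x-rays lie below every control at day 1 and above every control at day 7.

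On the first day after 4 Gy of x-rays, MCM, replication protein A and Okazaki fragment genes were lower with Pold1 and Cdt1, and 4 genes, Mcm10, Tk1, Gmnn and Pole3, were higher. Of the 46, 16 fell and 4 rose, against 16.6% lower and 12.8% higher among all genes. The median log2 difference was -0.61 over the 46 and -0.09 over all. Of the 7 MCM genes 6 fell and 1 rose (median -1.53), 2 of 3 replication protein A genes fell (-1.02), and 2 of 3 genes of Okazaki fragment processing fell (-1.07). In single mice the mean level of the 46 was -0.24 to 0.02, below the 0.09 to 0.39 of the controls. All 9 detected B cell genes were called lower here as well (median -4.30), and their part was not tested. Centring on spike-in probes left 7 lower and 4 higher, and normexp background correction 11 and 2.

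Mcm5 levels were -1.07, -1.86, -1.83, -1.53 and -1.06 after 4 Gy of x-rays, all below the lowest control at -0.04. Its difference was -1.97 ± 0.23 (3.92-fold, n = 5 and 5, limma adjusted p 6.69e-05). Mcm3, at 0.22, -0.10, 0.13, 0.06 and 0.78, fell by 1.62 ± 0.20, and Mcm2, at -1.19, -1.91, -1.86, -1.38 and -0.53, by 1.53 ± 0.26. None of these 3 overlapped with the controls. Mcm4 fell by 1.64, Mcm7 by 1.20 and Mcm6 by 0.94. Mcm2 lost its call after normexp background correction (-0.53). The probes of Dut disagreed here too, with 0.85 on the brighter one, which was not called, and -2.09 on the dimmer, untested one.

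Pold1 reached -0.61, -0.80, -0.50, -0.72 and -0.22, below all controls, a difference of -2.39 ± 0.19 (5.23-fold, limma adjusted p 8.6e-06). Cdt1 stood at 0.49, 0.33, 0.48, 0.35 and 0.63 and fell by 1.90 ± 0.18 (3.74-fold, 2.2e-05). Both genes were thus low in all 5 mice with little spread. Lig1, the ligase that seals Okazaki fragments, had control levels of 6.11, 6.99, 6.46, 6.96 and 7.09 and levels of 5.59, 3.97, 3.06, 4.73 and 4.51 after x-rays. It fell by 2.35 ± 0.40 (5.10-fold, 0.000624). The erythroid list moved the same way on these arrays, with 12 of 19 detected genes lower, 2 higher and a mean level of -1.72 to -0.19 against 0.59 to 1.57 in controls, and its part in the Lig1 result was not tested.

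Mcm10 had control levels of -0.92, -3.27, -1.14, 0.08 and -3.16, and 2.74, 4.00, 3.76, 1.74 and 2.36 after 4 Gy of x-rays. The groups were apart, though the controls alone spanned more than 3 log2 units, and Mcm10 rose by 4.60 ± 0.66 (24.2-fold, limma adjusted p 0.000244). With the hepatocyte level of each mouse as a covariate the difference was 2.29 and no longer called. Tk1, which phosphorylates thymidine, was at -0.37, -0.55, 0.02, 0.11 and -0.64 in controls and at 2.38, 2.98, 3.24, 1.52 and 1.90 after x-rays. It rose by 2.69 ± 0.32 (6.45-fold, 8.14e-05), and by 2.11 with that covariate, still called. Gmnn, which encodes geminin, was at -1.83, -1.47, -1.76, -1.99 and -1.76 in controls and at -0.62, -0.39, -0.05, -0.93 and -0.51 after x-rays. It rose by 1.26 ± 0.19 (0.000275), or by 0.71 and uncalled after normexp background correction, while Cdt1, the protein that geminin blocks, fell.

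Pole3, a small histone-fold subunit of polymerase epsilon, rose by 1.12 ± 0.22 (limma adjusted p 0.00144), from -1.43, -1.62, -1.40, -0.99 and -1.31 to -0.13, 0.32, -0.00, -0.63 and -0.70. The groups were apart, but the call was lost without control replicate 1, 2 or 3, without x-ray replicate 1, after normexp background correction (0.75), and with the hepatocyte covariate (0.82). With that covariate 5 of the 46 were called after 4 Gy of x-rays in place of 20, namely Cdt1, Mcm5 and Pold1 lower and Gmnn and Tk1 higher. The highest control was at 7.08, so that hepatocyte level and exposure cannot be told apart in full here.

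**Figure D3:**
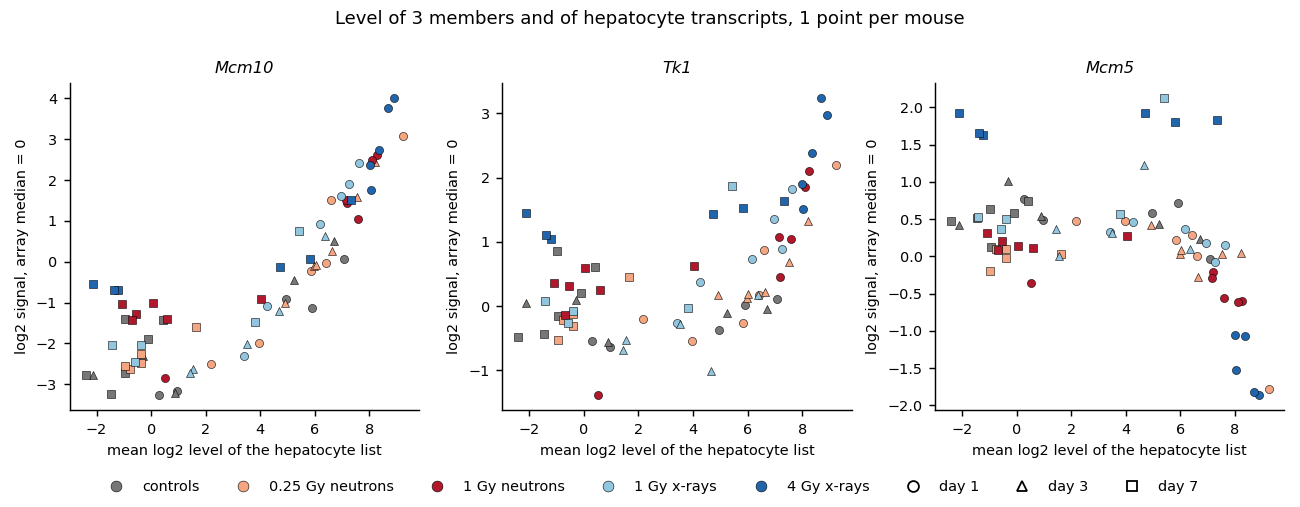
Log2 levels of Mcm10, Tk1 and Mcm5 (vertical axes) against the mean log2 level of 8 hepatocyte genes in the same mouse (horizontal axes), with 1 point per mouse, by exposure. The 4 Gy x-ray mice of day 1 lie at hepatocyte levels of 8.01 to 8.89 with Mcm10 at 1.74 to 4.00, and the day 7 controls at -2.40 to 0.41 with Mcm10 at -3.23 to -1.39.

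None of these genes was called after the lower doses at day 1. After 0.25 Gy neutrons none of the 46 was called by limma or by the methods' random variance test, 3 had an unadjusted p below 0.05, and 0.00621% of all genes were called. Replicate 5 of that group stood apart, with Mcm5 at -1.78, Mcm3 at -0.21, Mcm2 at -1.48 and Pold1 at 0.16. After 1 Gy of x-rays none was called by either test either, although 6.45% of all genes were and 17 of the 46 had an unadjusted p below 0.05. There Pold1 lay at 0.82 to 1.36 and differed by -0.65 ± 0.16 (adjusted p 0.0195), and Cdt1 lay at 1.63 to 2.03 and differed by -0.51 ± 0.16 (0.047). Both ranges touched those of the controls, and the median of the 46 was 0.07. From 0 to 3 genes were called when single mice were left out, with calls appearing without control replicate 1 or 4 or without x-ray replicate 1, 2, 3 or 6.

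At a nominal dose of 1 Gy at day 1, neutrons and x-rays were set against each other directly, though dose rate and gamma rays differed as well. Of the 46, 18 were lower after neutrons and none higher, against 8.34% lower and 1.28% higher of all genes, with medians of -0.46 and -0.01. The 18 included all 3 replication protein A genes, 5 of 7 MCM genes and 5 of 10 polymerase and primase genes. Pole2, the second subunit of polymerase epsilon, differed most, at -2.45, -2.34 and -1.92 (lowest, median, highest) after neutrons and -1.72, -0.85 and -0.31 after x-rays. The groups did not overlap, and the difference was -1.36 ± 0.22 (limma adjusted p 0.00199). Cdt1 differed by -1.04 ± 0.13 (0.00085) and Pold1 by -0.95 ± 0.14 (0.00147). With the scan date as a block none of the 18 was called, and none within the 1 scan date that held both groups (2 neutron and 4 x-ray mice). Under spike-in centring, and after normexp background correction, none of the 46 was called either.

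Against 4 Gy of x-rays at day 1, 1 Gy of neutrons left no gene of the 46 called in either direction by limma or the methods' random variance test, with 0.0311% of all genes called and 10 of the 46 at an unadjusted p below 0.05. The differences ran from -1.88 to 1.03 with a median of 0.13. Mcm5 differed by 1.03 ± 0.19 (adjusted p 0.125) and Pold1 by 0.78 ± 0.16 (0.135), and in both the ranges of the groups were apart with the 4 Gy x-ray mice lower. Cdt1 differed by 0.35 ± 0.15 (0.246), with overlapping groups.

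At day 3 the labels hold the lower doses only. After 0.25 Gy neutrons none of the 46 was called by limma or the methods' random variance test, 14 had an unadjusted p below 0.05, 1.53% of all genes were called and the median of the 46 was -0.16. After 1 Gy of x-rays 1 was called, Dut, against 0.342% lower and 1.22% higher of all genes. Dut encodes dUTPase, which keeps uracil out of DNA. Control levels were 2.40, 1.84, 1.97, 2.18 and 1.04, and levels after x-rays 3.33, 3.32, 3.04, 3.66 and 2.79. The groups did not overlap, and the rise of 1.34 ± 0.27 (limma adjusted p 0.0434) was lost without control replicate 2, 3, 4 or 5 or x-ray replicate 2, 4 or 5. The dimmer Dut probe differed by 0.23 in this comparison, and the mean of both probes by 0.79 and uncalled.

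At 7 days after 1 Gy of neutrons, polymerase, licensing and replication protein A genes were lower relative to the array median, whereas Lig1, Rrm2, Pole3 and Gins3 were higher. Of the 46, 15 fell and 4 rose, against 17.8% lower and 18.4% higher of all genes. Medians were -0.48 over the 46 and -0.05 over all. Lower calls numbered 5 of 10 in polymerases and primase (median -0.66), 3 of 7 in licensing (-0.76), 2 of 3 in replication protein A (-0.72) and 1 of 7 among the MCM genes (-0.39). Several members were above background on part of the 6 arrays only, among them Orc5 on 2, Orc2 and Rfc3 on 3 and Orc4, Gins1, Pold2 and Pole2 on 4. Centring on spike-in probes moved the median of all genes to -2.09, and 41 of the 46 were then called lower and none higher. Without the day 7 mice of high hepatocyte level 8 were lower and 3 higher. Only 1 neutron mouse shared a scan date with these controls, too few for scan date as a block to set the groups apart.

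Pold1 lay at -0.18, 0.33 and 0.47 (lowest, median, highest) in the neutron mice and at 1.72, 1.80 and 2.15 in the day 7 controls. No mouse crossed over. The fall of 1.62 ± 0.14 (3.07-fold, n = 6 and 6, limma adjusted p 1.73e-06) stood beside one of 1.60 at day 1. Cdt1, at 1.04 to 1.53 against 2.26 to 2.71, fell by 1.17 ± 0.13 (7.41e-06), and Orc6, a small subunit of the origin recognition complex, at -0.64 to -0.13 against 0.26 to 0.73, by 0.98 ± 0.13 (3.97e-05). Mcm4 was the 1 MCM gene called, at 1.05 to 1.66 against 1.78 to 2.26 (-0.65 ± 0.14, 0.00114). Mcm2 lay above all controls without being called, at 0.48 to 1.01 against -0.54 to 0.40 (0.68 ± 0.17, 0.00401).

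Lig1 lay at 9.57, 9.91 and 10.42 (lowest, median, highest) in the neutron mice and at 6.69, 7.66 and 7.71 in the controls. The groups were far apart, and the rise was 2.52 ± 0.21 (5.74-fold, limma adjusted p 1.1e-06), falling to 0.48 under spike-in centring and to 1.09 after normexp background correction, uncalled in both. Rrm2, the small subunit of ribonucleotide reductase, lay at 3.01, 3.36 and 3.99 against 0.96, 1.25 and 1.81. It rose by 2.09 ± 0.20 (4.26-fold, 3.02e-06), with 0.05 under spike-in centring, 0.76 after normexp background correction and no call in either, while Rrm1, the large subunit of the same enzyme, fell by 0.72 ± 0.14 (0.000606), from -0.13 to 0.50 to -0.92 to -0.40. The pair thus moved apart in the same mice. Rrm2's probe is 1 of the 3 annotated to another chromosome.

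Pole3 and Pole4 are partners in a histone-fold pair of polymerase epsilon. Pole3 rose by 0.96 ± 0.13 (limma adjusted p 5.34e-05), from -1.84 to -1.47 in controls to -0.97 to -0.35, with the opposite sign (-1.08) under spike-in centring and no call after normexp background correction (0.98). Pole4 fell by 0.78 ± 0.14 (0.000339), from 1.77 to 2.50 to 1.17 to 1.42. Gins3 lay at 5.39 to 6.36 against 5.15 to 5.40, overlapped with the controls and rose by 0.74 ± 0.17 (0.00204), with -1.30 under spike-in centring, -0.67 after normexp background correction and -0.040 after quantile normalization. That call was lost without any single control, and without neutron replicate 2, 3, 5 or 6. On these arrays the erythroid list was higher, with 16 of 19 genes called and a mean level of 2.58 to 3.63 against 0.56 to 1.28 in controls, and 7 of 9 B cell genes were lower. Their part in these results was not tested.

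Over the 2 days after 1 Gy neutrons, 27 of the 46 were called at one day or the other, against 45.4% of all genes. Of the 46, 8 were lower at both days, against 4.79% of all genes, and 1, Gins3, was lower at day 1 and higher at day 7, against 1.45%. Each day has its own controls.

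**Figure D4:**
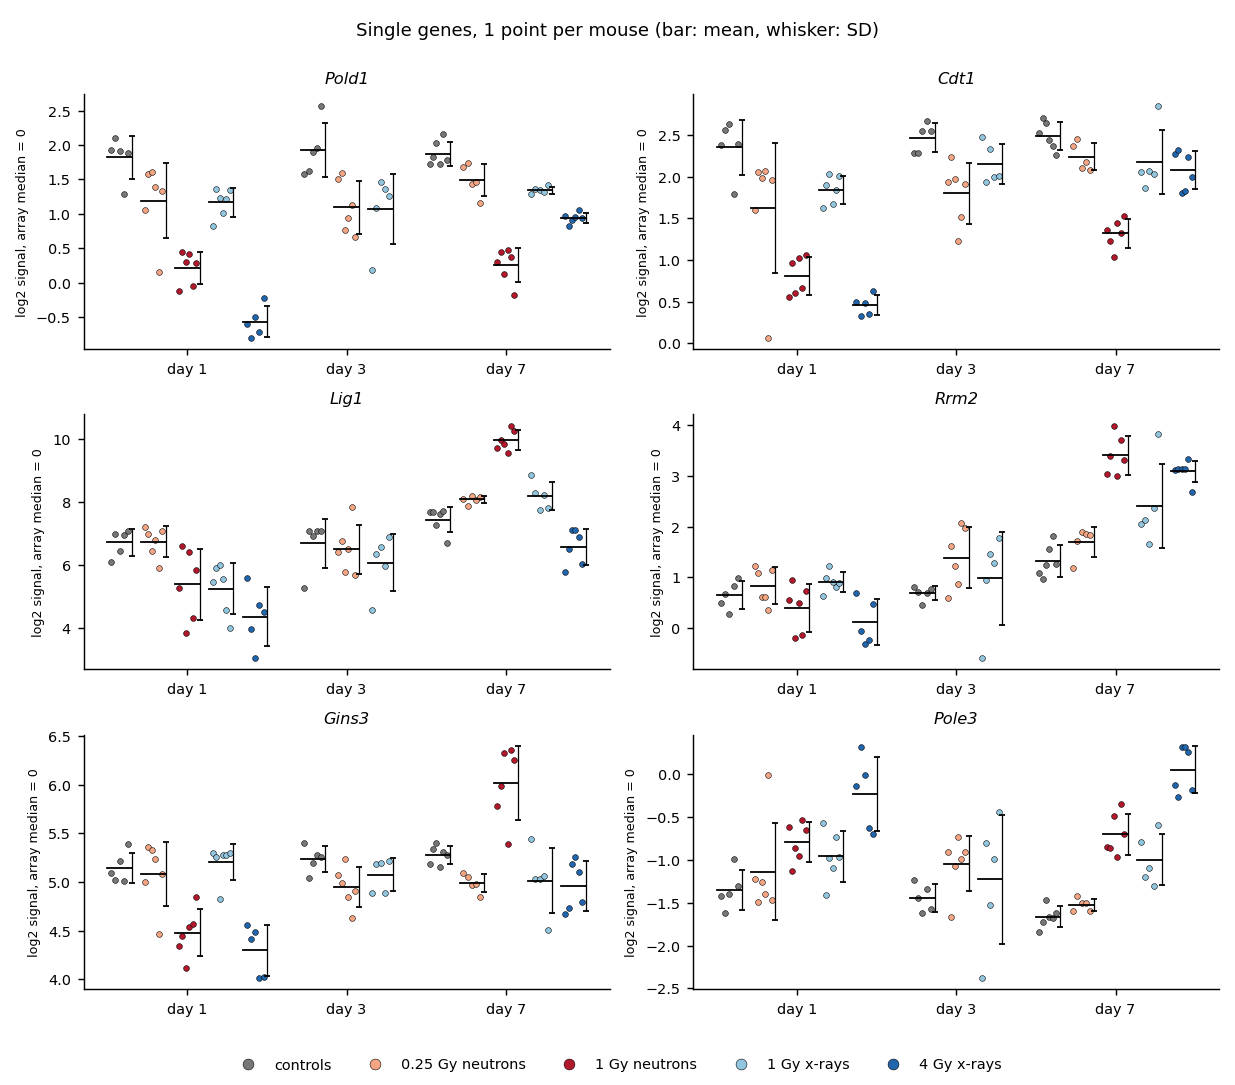
Log2 levels (array median 0) of Pold1, Cdt1, Lig1, Rrm2, Gins3 and Pole3 in every mouse, by exposure and day, with 1 point per mouse, a bar at the group mean and an error bar of 1 SD. Pold1 and Cdt1 lie below all controls after 1 Gy neutrons at both days, and Lig1 lies at 9.57 to 10.42 after 1 Gy neutrons at day 7 against 6.69 to 7.71 in the controls.

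At 7 days after 4 Gy of x-rays, 5 of the 7 MCM genes were above the controls, together with Rrm2, Tk1 and Pole3, while Pold1 and Pole4 were below. Of the 46, 2 fell and 11 rose, against 8.12% lower and 7.72% higher of all genes, with medians of 0.30 and -0.05. Of the 7 MCM genes 5 rose (median 0.94), as did 4 of 10 polymerase and primase genes (0.42) and 2 of 5 nucleotide supply genes (0.58), and no licensing, GINS, clamp, replication protein A or Okazaki fragment gene was called. The mean level of the 46 was 0.65 to 0.86 per mouse against 0.37 to 0.82 in the controls. After normexp background correction 2 of the 46 were called, both higher, with Mcm3, Mcm5, Mcm7, Mcm10, Pold1 and Pole4 among those that lost the call, and under spike-in centring 6, all higher.

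Mcm5 lay at 1.63, 1.82 and 1.93 (lowest, median, highest) after x-rays and at 0.13, 0.55 and 0.75 in the controls, and rose by 1.28 ± 0.12 (2.43-fold, n = 6 and 6, limma adjusted p 1.2e-05). Mcm2 lay at 1.10, 1.53 and 1.72 against -0.54, 0.07 and 0.40, and rose by 1.46 ± 0.17 (2.75-fold, 4.82e-05). Mcm3, at 2.60, 2.80 and 3.16 against 1.49, 1.97 and 2.16, rose by 0.94 ± 0.15 (1.92-fold, 0.000473). In these 3 genes every irradiated mouse was above every control. Mcm7 rose by 0.50 ± 0.11 (0.00477), a call lost without control replicate 1, 2, 3, 4 or 6 or x-ray replicate 1, 2, 4 or 5, and its probe is 1 of the 3 annotated to another chromosome. Mcm4 and Mcm6 differed by 0.33 ± 0.14 and 0.41 ± 0.16 and were not called (adjusted p 0.0748 and 0.0671). Mcm3 has a second, dimmer probe that was also lower after 4 Gy of x-rays at day 1 (-1.37) and higher at day 7 (1.00).

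Mcm10 lay at -0.68, -0.34 and 1.52 after x-rays against -3.23, -2.30 and -1.39 in the controls, and rose by 2.16 ± 0.42 (4.48-fold, limma adjusted p 0.00202). Hepatocyte genes were high in replicates 2, 4 and 6 of this group (4.72, 5.82 and 7.34) and low in replicates 1, 3 and 5 (-2.12, -1.22 and -1.37), and Mcm10 was at -0.14, 0.08 and 1.52 in the former and at -0.54, -0.68 and -0.68 in the latter. Without the former 3 mice and the other day 7 mice of high hepatocyte level the difference was 1.60 and uncalled, and 6 of the 46 were called in place of 13, with Mcm2, Mcm3, Mcm5, Pole3 and Rrm2 among the 5 higher. These 5 were thus called without those mice.

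Rrm2 lay at 2.68, 3.13 and 3.33 after 4 Gy of x-rays and rose by 1.77 ± 0.16 (3.42-fold, limma adjusted p 8.27e-06), and Tk1 at 1.05, 1.44 and 1.63 against -0.47, 0.02 and 0.85, a rise of 1.27 ± 0.23 (0.0014). Pole3 lay at -0.26, 0.07 and 0.32 against -1.84, -1.67 and -1.47, and rose by 1.72 ± 0.14 (3.29-fold, 2.52e-06). All 3 were above every control. Pole4, the partner of Pole3, lay at 1.16 to 1.43 against 1.77 to 2.50 and fell by 0.73 ± 0.13 (0.00129), so that this pair moved apart here too. Pold1 was below every control as well, at 0.83, 0.95 and 1.05 against 1.72 to 2.15, a fall of 0.93 ± 0.11 (1.91-fold, 5.35e-05), while the catalytic subunits Pola1 and Pole rose by 0.77 and 0.94 and its partner Pold2 by 0.50. Another delta subunit, Pold3, differed by -0.39 ± 0.13 and was not called (0.0284). Lig1 lay at 5.79 to 7.13, overlapping with the controls, and was not called (-0.87 ± 0.26, 0.0222). All 9 detected B cell genes were lower on these arrays, and 18 of 22 detected mitosis genes were higher, led by Mki67 at 3.14. The erythroid list had 8 of 19 detected genes called higher and none lower, with a mean level of 1.59 to 2.71 against 0.56 to 1.28 in controls. The part of these lists in the results was not tested.

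Single genes were called after the lower doses at day 7. After 0.25 Gy neutrons Orc6 fell by 0.69 ± 0.13 (limma adjusted p 0.046), with levels of 0.11, -0.00, -0.12, -0.12 and -0.44 against 0.26, 0.61 and 0.73 (lowest, median, highest), and it was the 1 gene called of the 46, against 0.0435% lower and 0.503% higher of all genes. Every mouse was below the controls, though the call was lost without control replicate 3, 4, 5 or 6 or neutron replicate 2, 3, 4 or 5, and without control replicate 1 the count was 2. After 1 Gy of x-rays 1 gene fell and 1 rose, against 1.1% lower and 2.64% higher of all genes. Pold1 fell by 0.53 ± 0.11 (0.021), at 1.29, 1.36, 1.34, 1.31 and 1.42, which lies below all controls. Pole3 rose by 0.67 ± 0.14 (0.022), at -0.79, -1.20, -1.10, -1.31 and -0.60, above all controls but with the opposite sign under spike-in centring (-0.26). The Pold1 call was lost without control replicate 2, 3, 5 or 6 or x-ray replicate 1, 2, 3 or 4, and the Pole3 call without control replicate 1, 2, 4, 5 or 6 or x-ray replicate 1, 3 or 5. Replicate 5 of the 1 Gy x-ray group was far above the other 4 in Mcm5 (2.12 against 0.37 to 0.57) and in Rrm2 (3.83 against 1.66 to 2.36).

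Pold1 was below its controls on average in all 10 irradiated groups. The differences were -0.63, -1.60, -0.65 and -2.39 at day 1, -0.83 and -0.85 at day 3, and -0.38, -1.62, -0.53 and -0.93 at day 7, in the order 0.25 Gy neutrons, 1 Gy neutrons, 1 Gy of x-rays and 4 Gy of x-rays, with day 3 lacking the second and the fourth. Of these 10 Pold1 differences, 5 were called. Cdt1 was also below its controls on average in all 10 groups, and how many other genes were so was not counted. The groups of a day share their controls, so the 10 differences are not independent.

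Compared directly at day 7, 1 Gy of neutrons left 25 of the 46 lower and 4 higher than 4 Gy of x-rays, against 14.6% lower and 22.7% higher of all genes, with medians of -0.76 and -0.11. The lower genes comprised 6 of 7 MCM genes, 7 of 10 polymerase and primase genes and 4 of 6 clamp and clamp loader genes. Mcm5 lay at 0.08, 0.17 and 0.32 after neutrons and at 1.63 to 1.93 after x-rays, a difference of -1.61 ± 0.11 (limma adjusted p 5.54e-07), and Mcm3 differed by -1.53 ± 0.15 (3.64e-06). No neutron mouse came near the x-ray mice in either gene. Gmnn differed by -1.26, Rrm1 by -1.30 and Prim1, the catalytic subunit of primase, by -1.40.

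Lig1 was 10.5-fold higher after 1 Gy neutrons than after 4 Gy of x-rays (3.39 ± 0.25, limma adjusted p 7.28e-07), and the groups, at 9.57 to 10.42 and 5.79 to 7.13, were apart. Erythroid genes were higher by the same comparison for 10 of 19 genes, and their part was not tested. Tyms, Cdc45 and Gins3 were higher by 1.81 ± 0.34, 1.25 ± 0.18 and 1.06 ± 0.19, and of the 4 only Lig1 stayed above 0 under spike-in centring, which moved the median of all genes to -2.38. The 1 scan date that held both groups had 1 neutron mouse. That is too few to set the groups against each other, within it or with scan date as a block. Without the day 7 mice of high hepatocyte level 7 were lower and 1 higher.

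Against 1 Gy of x-rays at day 7, 1 Gy neutrons left Pold1 (-1.09 ± 0.14, limma adjusted p 0.000588) and Cdt1 (-0.86, 0.00323) lower and Lig1 (1.78 ± 0.23, 0.000525) and Gins3 (1.00, 0.00326) higher, against 6.96% lower and 13.1% higher of all genes. Pold1 lay at -0.18 to 0.47 against 1.29 to 1.42, Cdt1 at 1.04 to 1.53 against 1.87 to 2.85, and Lig1 at 9.57 to 10.42 against 7.76 to 8.87. These 3 did not overlap between the groups, whereas Gins3 did and turned below 0 under spike-in centring, in which the median of all genes was -1.13. The count was 2 without neutron replicate 2 or 3 or without x-ray replicate 3.

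The change of each effect from day 1 to day 7 was tested as an interaction. For 4 Gy of x-rays 20 of the 46 had a higher and 1 a lower effect at day 7, against 11.3% and 8.45% of all genes, with medians of 0.72 and 0.02. The 20 held 6 of 7 MCM genes and 7 of 10 polymerase and primase genes. Mcm5 changed by 3.25 ± 0.24 (limma adjusted p 1.94e-08), Mcm2 by 2.99 ± 0.30 and Mcm3 by 2.56 ± 0.24, and these 3 with Mcm7 were called lower at day 1 and higher at day 7, or 4 of 46 against 0.839% of all genes. Fewer of the 46 had a called change after normexp background correction or under spike-in centring. Mcm2, Mcm3 and Mcm7 lost the day 1 call with the hepatocyte covariate. After normexp background correction Mcm2 lost the day 1 call, and Mcm3, Mcm5 and Mcm7 lost the day 7 call. At either day 25 of the 46 were called, against 38.2% of all genes, and 1 (Pold1) was lower at both days (3.88% of all) and 3 (Mcm10, Tk1 and Pole3) higher at both (2.17%). Pole4 was the 1 gene whose effect became lower (-1.20). It lay at 1.85 to 2.32 against 1.45 to 1.78 in controls at day 1 and at 1.16 to 1.43 against 1.77 to 2.50 at day 7.

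For 1 Gy neutrons the effect on 4 genes was higher and on 2 lower at day 7, against 16.1% and 7.94% of all genes, with a median of -0.02 over the 46. Higher were Lig1 (3.85 ± 0.53), Rrm2 (2.35), Mcm2 (1.54) and Gins3 (1.41), and lower were Gins1 (-1.23) and Pole4 (-0.79). Under spike-in centring, in which the median of all genes was -2.63, of the 4 only Lig1 stays above 0. For 1 Gy of x-rays Lig1 was higher (2.21 ± 0.45) and Pole4 lower (-0.91), against 5.05% and 2.14% of all genes. Lig1 in controls was 6.72 at day 1 and 7.45 at day 7 on average and did not differ between these days by the rule (0.73 ± 0.24, adjusted p 0.0538). Between the controls of day 7 and day 1, 2 of the 46 were higher, Gins1 (0.79) and Gins2 (1.04), against 1.82% lower and 2.57% higher of all genes. Between days 7 and 3 Gins2 was higher (0.74), against 1.57% lower and 0.69% higher of all genes, and between days 3 and 1 none of the 46 and 0% of all genes were called, with 4 of the 46 at an unadjusted p below 0.05.

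Rfc4, a subunit of the clamp loader, and Tyms, which makes thymidylate, had wide spreads within groups. The brighter Rfc4 probe lay at 0.85, 5.39 and 6.39 (lowest, median, highest) in the day 7 controls and at 0.42, 0.77 and 0.93 after 4 Gy of x-rays, and was not called (-3.43 ± 0.93, limma adjusted p 0.0127). Over all arrays it ran from -0.78 to 6.39. The dimmer Rfc4 probe lay at -2.88 to -2.71 in the day 1 controls, at -3.70 to -3.34 after 1 Gy neutrons and at -3.86 to -3.46 after 4 Gy of x-rays, differences of -0.69 and -0.82 where the brighter probe had 0.66 and 0.24. The 2 probes thus disagree in direction. The brighter probe was not called at day 1, and the dimmer one, whose irradiated groups lie below all controls, was not tested, since 1 probe stood for each gene. Tyms ran from -2.56 to 3.54 in the day 7 controls, with 1 of the 6 arrays left out as an outlier spot, and from -2.83 to -2.07 after 4 Gy of x-rays, and was not called (-2.77 ± 0.94, adjusted p 0.0387).

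**Figure D5:**
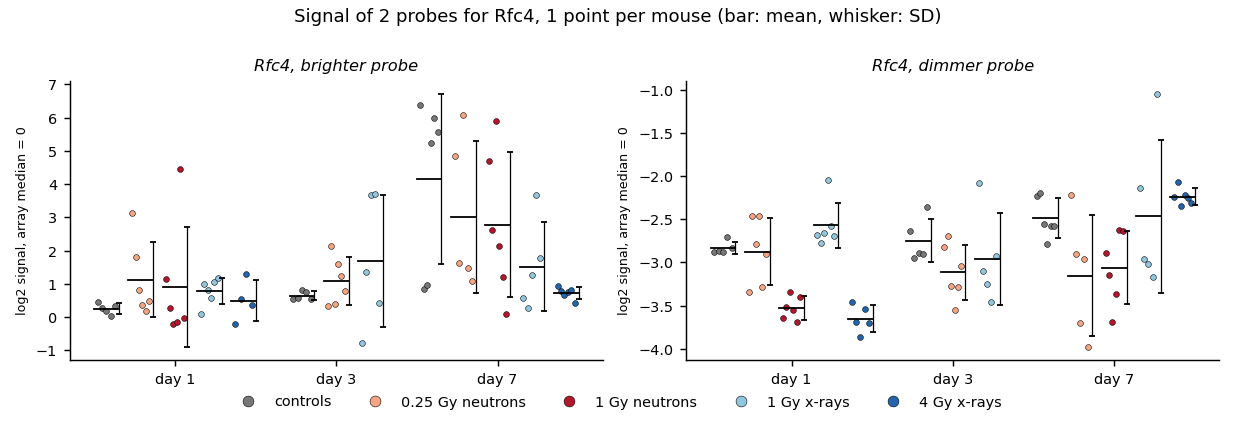
Log2 levels (array median 0) of the brighter and the dimmer probe of Rfc4 in every mouse, by exposure and day, with 1 point per mouse, a bar at the group mean and an error bar of 1 SD. The brighter probe ranges from 0.85 to 6.39 in the day 7 controls and from 0.42 to 0.93 after 4 Gy of x-rays.

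Other genes of the same pathways were read from lists. Of 28 further replication factors 23 were detected, and 6 fell after 1 Gy neutrons at day 1 (median -0.53, led by Timeless at -1.21) and 14 after 4 Gy of x-rays at day 1 (-0.96, led by the maintenance methyltransferase Dnmt1 at -1.83), with none higher in either. Over all genes these comparisons had 10.7% and 16.6% called lower. At day 7, 5 fell and 5 rose after neutrons (Mtbp at -1.02 and Uhrf1 at 2.39), and 2 fell and 8 rose after 4 Gy of x-rays (Wdhd1 at -1.40 and topoisomerase Top2a at 2.23), where 17.8% and 8.12% of all genes were called lower and 18.4% and 7.72% higher. Of 30 further enzymes of nucleotide synthesis 26 were detected. After 1 Gy neutrons 3 of these fell at day 1 and 13 fell and 2 rose at day 7, and after 4 Gy of x-rays 4 fell and 3 rose at day 1 and 3 fell and 1 rose at day 7. Of these counts, the 3 and 4 of 26 lower at day 1 lie near the shares of all genes. After 4 Gy of x-rays so do the 3 lower at day 7. So do the 3 higher at day 1, where 12.8% of all genes were called higher. The 2 and 1 higher at day 7 lie below those shares. Among the replication factors at day 7, the 5 and 5 after neutrons and the 2 lower after x-rays also lie near them. Pfas, an enzyme of purine synthesis, was at -1.24 at day 1 and 2.10 at day 7 after 1 Gy neutrons.

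Mitosis genes, 22 of 26 detected, stood at 5 lower and 1 higher after 1 Gy neutrons at day 1, and at 12 lower and 1 higher after 4 Gy of x-rays at day 1, with the kinase Cdk1 the higher one in both (0.90 and 0.72). At day 7 they stood at 1 lower and 9 higher after 1 Gy neutrons, where Ccna2 was at 2.95, and at 18 higher after 4 Gy of x-rays (median 1.48), against the same shares of all genes. Between these 2 groups of day 7, 10 were lower and 3 higher after neutrons, against 14.6% lower and 22.7% higher of all genes. The 3 of 22 higher lie below that share. Among 11 detected p53 targets, the cyclin-dependent kinase inhibitor Cdkn1a was called higher in the 1 Gy neutron and the 4 Gy x-ray mice at both days, by 4.15 in the x-ray mice at day 1 and by 1.45 and 3.07 in the neutron and x-ray mice at day 7. Rrm2b, the p53-inducible small subunit of ribonucleotide reductase, was lower in 3 of the 4, at -1.01 and -1.65 at day 1 and at -1.14 at day 7 after neutrons. These 2 genes went opposite ways, are given singly and do not stand for the list.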

How the data were processed

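Blood RNA of 72 male mice in 13 groups was depleted of globin transcripts, labelled with Cy3 and hybridised by the authors to one-colour Agilent 4x44K arrays, which were read with Feature Extraction 12.0.2 per the labels. The deposited intensity of each spot was background-corrected by that software and not normalized between arrays. The deposited table of log2 values made by the authors was used in 1 alternative only, since 60 of its 72 columns follow another sample's array, and was not otherwise used. For 21 columns that array belongs to another group. Groups were taken from the sample labels of the array files, and which side of this mismatch is right was not tested.

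Of 43020 spots with a probe (39429 different probes), outlier spots were left out, replicate spots averaged, and each array's log2 values centred on the median over its detected probes. For 28330 probes the gene name came through the transcript accession, which changed 1403 names. A probe was detected where outliers and dim spots made up less than 25% of its spots (19808 probes passed). The brightest detected probe stood for a gene, and 16098 genes were tested with limma 3.58.1 (lmFit, eBayes, 2-sided) in R 4.3.3, in fits of the 2 groups compared or, for the change from day 1 to day 7, of 4 groups. Adjusted p-values are Benjamini-Hochberg values over all genes tested. All other steps used Python 3.11.15 with numpy 2.4.6 and pandas 2.3.3. Scripts were checked on simulated data.

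The number of arrays, 5 or 6 mice in a group, limits the precision, and p-values measure the spread between the mice of a group. No 2 arrays held identical values, and the highest correlation between arrays was 0.992. Members and gene lists were chosen with earlier results of these data known. By rule, the genes named with values were the brightest of each role in the controls, the largest rise and fall among the called members of each comparison with controls, members called against the direction of most, members called in opposite directions at the 2 days, undetected members, and the largest rise and fall of other gene lists. Others named were chosen after their values were seen. Alternatives were centring on the 75th percentile or on 8 spike-in probes, quantile normalization, normexp background correction with an offset of 50, dim spots as missing, no detection filter, a filter for genes that vary 1.5-fold on 20% of arrays, the mean of probes, scan date or replicate number as a block, the random variance test of the authors' methods, and leaving out each mouse. Slide as a random block, fits within a shared scan date, hepatocyte level as a covariate and leaving out day 7 mice of high hepatocyte level were added after seeing the data. Random-block correlations were estimated on every 5th gene and set to 0 where negative.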

Additional observations from a re-analysis of the deposited data

Results flagged for a closer look

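In 4 of 50 sets of values, 1 mouse stood apart from its group by a gap that chance alone gives in about 1 of 20 such sets. The 50 sets covered only part of the genes and groups. Outside these 4, replicate 5 of 0.25 Gy neutrons at day 1 stood apart in Mcm5 (-1.78). Replicate 5 of 1 Gy of x-rays at day 7 did so too (2.12). Among the 4, control replicate 4 of day 1 was lowest in Pold1 (1.29, next 1.88, a gap of 0.727 of the range), in Mcm3 (1.35, next 1.87, 0.749) and in Mcm7 (1.43, next 1.93, 0.735). Replicate 6 of 4 Gy of x-rays at day 7, with a hepatocyte level of 7.34, was highest in Mcm10 (1.52, next 0.08, 0.656).

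The effect of exposure differed between day 1 and day 7 by the limma interaction term in 29 cases, given as log2 differences of the effects, day 7 minus day 1. After 1 Gy neutrons these were -1.23 for Gins1, -0.79 for Pole4, 1.41 for Gins3, 1.54 for Mcm2, 2.35 for Rrm2 and 3.85 for Lig1. After 1 Gy of x-rays they were -0.91 for Pole4 and 2.21 for Lig1. After 4 Gy of x-rays the effect was lower for Pole4, at -1.20, and higher for 20 genes. In the MCM helicase these were Mcm6 at 1.35, Mcm7 at 1.70, Mcm4 at 1.97, Mcm3 at 2.56, Mcm2 at 2.99 and Mcm5 at 3.25. In the polymerases and primase they were Prim2 at 1.03, Pold2 at 1.12, Pola1 at 1.37, Pold1 at 1.46, Pole at 1.55, Prim1 at 1.57 and Pole2 at 1.79. The others were Rpa1 at 1.05, Rpa2 at 1.22, Pcna at 1.15, Fen1 at 1.44, Cdt1 at 1.49, Rrm1 at 1.26 and Rrm2 at 2.31.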

How the results depend on the processing

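Counts of the 46 genes called depended on the scaling and the background correction. Under spike-in centring they were 2 for 1 Gy neutrons at day 1 (0 lower, 2 higher, in place of 17 lower), 11 for 4 Gy of x-rays at day 1, 1 for 0.25 Gy neutrons at day 3, 0 for 1 Gy of x-rays at day 3, 23 for 0.25 Gy neutrons, 41 for 1 Gy neutrons, 4 for 1 Gy of x-rays and 6 for 4 Gy of x-rays at day 7, 0 and 22 for 1 Gy neutrons against 1 Gy of x-rays at days 1 and 7, 44 against 4 Gy of x-rays at day 7, and 40 (all lower, against 2 lower and 4 higher) and 12 for the day 7 minus day 1 effects of 1 Gy neutrons and 4 Gy of x-rays. That centring moved the median log2 difference of all genes to 0.42 and 0.17 for 1 Gy neutrons and 4 Gy of x-rays at day 1, to -0.30 and -0.81 for 0.25 Gy neutrons and 1 Gy of x-rays at day 3, and to -1.13, -2.09, -0.95 and 0.18 for the 4 groups of day 7. By construction it cannot change the difference between the 46 and all genes, since it shifts all genes of an array alike. The share of higher among all called genes went from 34.4 to 87.2% for 1 Gy neutrons and from 43.5 to 64.4% for 4 Gy of x-rays at day 1, and from 51.0 to 0.835% and 48.7 to 74.1% at day 7. Centring on the 75th percentile gave shares of 19.5% and 24.9% at day 1 and 40.5% for neutrons at day 7, and dim spots as missing 26.7% there. After normexp correction the counts were 3 and 13 for 1 Gy neutrons and 4 Gy of x-rays at day 1, 0 for 1 Gy of x-rays at day 3, 0, 8, 0 and 2 at day 7, 0, 9 and 4 for 1 Gy neutrons against 1 Gy of x-rays at days 1 and 7 and against 4 Gy of x-rays at day 7, and 1 (lower), 0 and 4 for the effects of 1 Gy neutrons, 1 Gy of x-rays and 4 Gy of x-rays between days. Gins3 after 1 Gy neutrons at day 7 was at -0.67 there, at -0.040 after quantile normalization and at -1.30 under spike-in centring, and Pole3 under that centring at -1.08 after 1 Gy neutrons and -0.26 after 1 Gy of x-rays at day 7.

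With dim spots missing, counts were 2 for 1 Gy of x-rays at day 1, 0, 29 and 1 for 0.25 Gy neutrons, 1 Gy neutrons and 1 Gy of x-rays at day 7, 18 for 1 Gy neutrons against 1 Gy of x-rays at day 7 and 16 (12 lower, 4 higher) for the change of the 1 Gy neutron effect. After 1 Gy of x-rays at day 1, the 75th percentile and quantile normalization gave 3 each, and the mean of probes and no detection filter 1 each. The 1 call of 1 Gy of x-rays at day 3 was 0 under these 4. At day 7 the 1 call of 0.25 Gy neutrons was 0 under the 75th percentile, quantile normalization and the variation filter, and the 2 calls of 1 Gy of x-rays were 1, 1 and 0 in the same order and 0 with no detection filter. Quantile normalization gave 2 for 1 Gy neutrons against 1 Gy of x-rays at day 7. The variation filter, which tests fewer genes, gave 11 and 10 for 1 Gy neutrons at days 1 and 7 and 1 for the change of the 1 Gy x-ray effect. With scan date as a block, counts were 0 and 2 for 1 Gy neutrons against 1 Gy of x-rays at days 1 and 7 and 1 for the change of the 1 Gy x-ray effect. Against controls or 4 Gy of x-rays, the block for 1 Gy neutrons at day 7 rests on 1 mouse, so no count is given. No block was needed for 0.25 Gy neutrons at days 1 and 7, which share 1 scan date with their controls, and none could be fitted for 4 Gy of x-rays at day 7. Within shared scan dates the counts were 11 for 1 Gy neutrons at day 1 and 0 against 1 Gy of x-rays at day 1. The 4 fits of day 7 within shared dates had a group of 1 mouse, assumed to vary like the other group. They show nothing of the spread of the group of 1 mouse, and their counts are not given. Slide as a random block gave 0, 12 and 0 for 0.25 Gy neutrons, 1 Gy neutrons and 1 Gy of x-rays at day 7. Hepatocyte level as a covariate gave 1 and 5 for 1 and 4 Gy of x-rays at day 1, 0 for 1 Gy of x-rays at day 3, and 0 and 0 for 0.25 Gy neutrons and 1 Gy of x-rays at day 7. Without the day 7 mice of high hepatocyte level the counts were 0, 11, 0 and 6 for the 4 groups of day 7, and 8 for 1 Gy neutrons against 4 Gy of x-rays. The cause of these moves was not tested.

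Replicate numbers did not pair the mice, since in 0 of 14 comparisons did every pair deviate together (correlations -0.53 to 0.64) and 12 of 74 pairs correlated best with their own number. The replicate block gave 8 and 2 for 1 Gy neutrons and 1 Gy of x-rays at day 1, 0, 9 and 0 for 0.25 Gy neutrons, 1 Gy neutrons and 1 Gy of x-rays at day 7, and 2 for 1 Gy neutrons against 1 Gy of x-rays at day 7.

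With single mice left out, counts ran from 12 to 22 for 1 Gy neutrons, 0 to 3 for 1 Gy of x-rays and 15 to 22 for 4 Gy of x-rays at day 1, and from 0 to 1 for 1 Gy of x-rays at day 3. At day 7 they ran from 0 to 2 for 0.25 Gy neutrons, 14 to 19 for 1 Gy neutrons, 0 to 2 for 1 Gy of x-rays and 10 to 14 for 4 Gy of x-rays. For 1 Gy neutrons they ran from 17 to 20 and 2 to 4 against 1 Gy of x-rays at days 1 and 7 and from 24 to 28 against 4 Gy of x-rays at day 7, and for the changes between days from 5 to 6, 2 to 4 and 20 to 23 in the order 1 Gy neutrons, 1 Gy of x-rays and 4 Gy of x-rays. The count of 4 for 1 Gy of x-rays came without x-ray replicate 5 of day 7. The 2 comparisons of 0.25 Gy neutrons at days 1 and 3 and that of 1 Gy neutrons against 4 Gy of x-rays at day 1 stayed at 0. Under the other settings 154 counts stayed within 1.5 times the reported count, 77 moved further and 4 reversed, and of the values of named genes 269 kept direction and call, 89 lost the call and 5 changed sign. The low share of spots above background after 1 Gy neutrons at day 7 limits what can be said of the dim genes there.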
